A study of Mus musculus with 47 samples.

Results

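Ionocytes are rare epithelial cells that move protons, chloride and bicarbonate, and medullary thymic epithelial cells (mTECs) that take on their gene program are called ionocyte mimetic cells. The expression of 8 genes of that program, Foxi1, Foxi2, Ascl3, Atp6v1b1, Atp6v1g3, Atp6v0d2, Cftr and Bsnd, was followed across sorted mTECs of mice, the genes being taken by name from the 53402 genes listed in the adult and the 55471 genes listed in the neonatal count table. The RNA-seq libraries were bulk libraries of live CD45- EpCAM+ Ly51- thymus cells of C57BL/6 mice, sorted for high (mTEChi) or low (mTEClo) surface MHC class II. The adult table holds 7 mTEChi and 8 mTEClo libraries of WT mice aged 4 to 5 weeks, and 4 mTEChi and 4 mTEClo libraries of AireKO mice aged 5 to 6 weeks, all of them male where the WT mice were of both sexes. The neonatal table holds 5 mTEChi and 3 mTEClo libraries of Ctrl mice, 3 and 4 libraries of EEDcKO mice, 3 mTEChi libraries of AireKO mice, and 3 and 3 libraries of AireEEDdKO mice, which lack both genes. EEDcKO mice carry a floxed Eed allele that Foxn1-Cre, active in thymic epithelium, removes. Ctrl and EEDcKO pups were 1 to 6 days old and AireKO and AireEEDdKO pups 4 to 6 days old, while every mTEClo Ctrl library came from pups of 1 to 3 days. The study describes mTEChi libraries of these genotypes as individual mice, whereas the labels call several neonatal libraries of both fractions pools of male and female pups, and for mTEClo no source of separate animals is stated, so that p-values there measure only the spread between libraries.

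Aire is the nuclear protein that lets mTECs express antigens of peripheral tissues, and EED belongs to the core of Polycomb repressive complex 2, which places the repressive histone mark H3K27me3. Foxi1 is the forkhead factor that specifies ionocytes of the airway and inner ear and intercalated cells of the kidney. These cells acidify or alkalinize the fluid that they face through a vacuolar proton pump (V-ATPase), whose cell-type-specific subunits are encoded by Atp6v1b1, Atp6v1g3 and Atp6v0d2, together with anion channels such as CFTR and barttin, the channel accessory subunit encoded by Bsnd.

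Libraries held 1602125 to 3938588 counts in the adult table and 1578579 to 4817418 in the neonatal table, so that 3 counts, the 95% limit that a count of 0 allows, correspond to a level of 0.728 to 1.91 CPM, the count scaled to library size, in an adult and 0.616 to 2.07 CPM in a neonatal library. Such limits and the count intervals given here cover counting error only. The targeted genes followed the labels. Aire stood at 818 ± 56.0 CPM (SD, n = 7) in adult mTEChi of WT mice and at 29.3 ± 11.6 CPM (n = 4) in AireKO, and at 619 ± 154 CPM (n = 5) in neonatal Ctrl mTEChi against 70.6 ± 38.7 CPM (n = 3) in AireKO. Eed fell short of complete loss, with 14.8 ± 4.63 CPM (n = 3) in mTEChi EEDcKO and 29.1 ± 7.93 CPM (n = 5) in Ctrl. Epcam, the epithelial surface protein of the sort gate, was read at 163 to 352 CPM across all libraries. Counts of mitochondrial genes were 0 in 6 adult libraries, namely all 4 mTEChi AireKO and mTEClo AireKO replicates 3 and 4, and 6178 to 10339 in the other 17, so in adult mTEChi the genotype and this kind of library cannot be told apart. All 24 neonatal libraries held mitochondrial counts. Changes below are log2 fold changes with their standard errors from edgeR's quasi-likelihood F-test, p-values are adjusted by Benjamini-Hochberg over all tested genes, and calls need an adjusted p below 0.05 together with a change of 2-fold or more. In both tables, 7 of the 8 genes had enough counts to be tested, and Atp6v1g3 was described by its levels alone. How often the ranges of compared groups were apart over all tested genes was not counted.

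The genes lie apart from each other on 5 chromosomes of GRCm38 (mm10), and the exons of 7 of them overlap no other annotated gene. Foxi1 is at chr11:34204338-34208089 on the minus strand, Foxi2 at chr7:135410308-135413622 on the plus strand, Ascl3 at chr7:109727465-109731726 on the minus strand, and Atp6v1b1 at chr6:83742990-83758855 on the plus strand. Atp6v1g3 is at chr1:138273738-138289462 and Cftr at chr6:18170687-18322768, both on the plus strand, whereas Atp6v0d2 at chr4:19876841-19922605 and Bsnd at chr4:106483456-106492283 are on the minus strand. The exons of Cftr share 129 bases, 1.66% of their length, with the antisense gene Gm15592, and because strand was not used in counting the reads of that stretch cannot be assigned to either gene. RefSeq promoter windows of 300 bases around the transcription start (GRCm38.p6) were at hand for 6 of the 8 genes. The windows of both forkhead genes and of the proton pump gene Atp6v1b1 are shown, the former because they encode the factors and the latter because it alone of the windows found held a forkhead core sequence searched for. Capitals mark the single TGTTTAC, a core sequence of forkhead binding sites, found on either strand in the 6 windows.
Foxi1, chr11:34208040-34208339, minus strand: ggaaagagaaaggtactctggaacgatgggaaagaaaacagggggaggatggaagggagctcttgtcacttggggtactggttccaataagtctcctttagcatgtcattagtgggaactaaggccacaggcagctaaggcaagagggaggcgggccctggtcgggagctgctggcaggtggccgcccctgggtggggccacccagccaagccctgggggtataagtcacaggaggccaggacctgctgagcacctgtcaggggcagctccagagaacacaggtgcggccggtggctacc
Foxi2, chr7:135410117-135410416, plus strand: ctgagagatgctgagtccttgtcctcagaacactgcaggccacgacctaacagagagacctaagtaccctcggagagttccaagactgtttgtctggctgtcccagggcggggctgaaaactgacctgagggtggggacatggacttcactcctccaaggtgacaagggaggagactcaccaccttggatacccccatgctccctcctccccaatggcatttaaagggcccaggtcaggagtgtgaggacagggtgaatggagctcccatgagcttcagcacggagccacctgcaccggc
Atp6v1b1, chr6:83742767-83743066, plus strand: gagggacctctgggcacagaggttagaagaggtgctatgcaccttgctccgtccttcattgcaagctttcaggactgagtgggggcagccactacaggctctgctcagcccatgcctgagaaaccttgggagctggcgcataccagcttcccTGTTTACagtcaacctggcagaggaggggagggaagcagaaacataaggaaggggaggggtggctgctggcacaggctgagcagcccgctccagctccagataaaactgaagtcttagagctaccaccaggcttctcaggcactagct
The match in Atp6v1b1 lies 98 bases before the start, and the same letters or their complement GTAAACA are in 3.65% (1199) of all 32851 windows. The related TGTTTAT (4.6% of windows) and the E-box CAGCTG (16.3%), which basic helix-loop-helix factors such as Ascl3 can bind, were in none of the 6 windows. The window of Cftr was the richest in G and C at 71.3% and that of Ascl3 the poorest at 36%, against a median of 52.7% over all windows.

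Per kilobase of exon, Cftr, the chloride and bicarbonate channel, had the highest mean of these genes in adult mTEChi of WT mice at 9.75 ± 3.25 CPM per kb (SD, n = 7). Foxi1 stood beside it at 8.09 ± 1.78 CPM per kb, followed by Atp6v1b1 at 3.07 ± 0.983 and Atp6v0d2 at 2.87 ± 1.09 CPM per kb. Foxi2 (1.56 ± 0.245), Bsnd (1.34 ± 0.990), Ascl3 (0.840 ± 0.872) and Atp6v1g3 (0.688 ± 0.637 CPM per kb) were low, so that in adult WT mTEChi a library held at most 8 counts of Atp6v1g3 and at most 3 counts of Ascl3. In whole RNA of a sorted fraction, fewer ionocyte-like cells and less RNA of a gene per cell cannot be told apart.

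**Figure D1:**
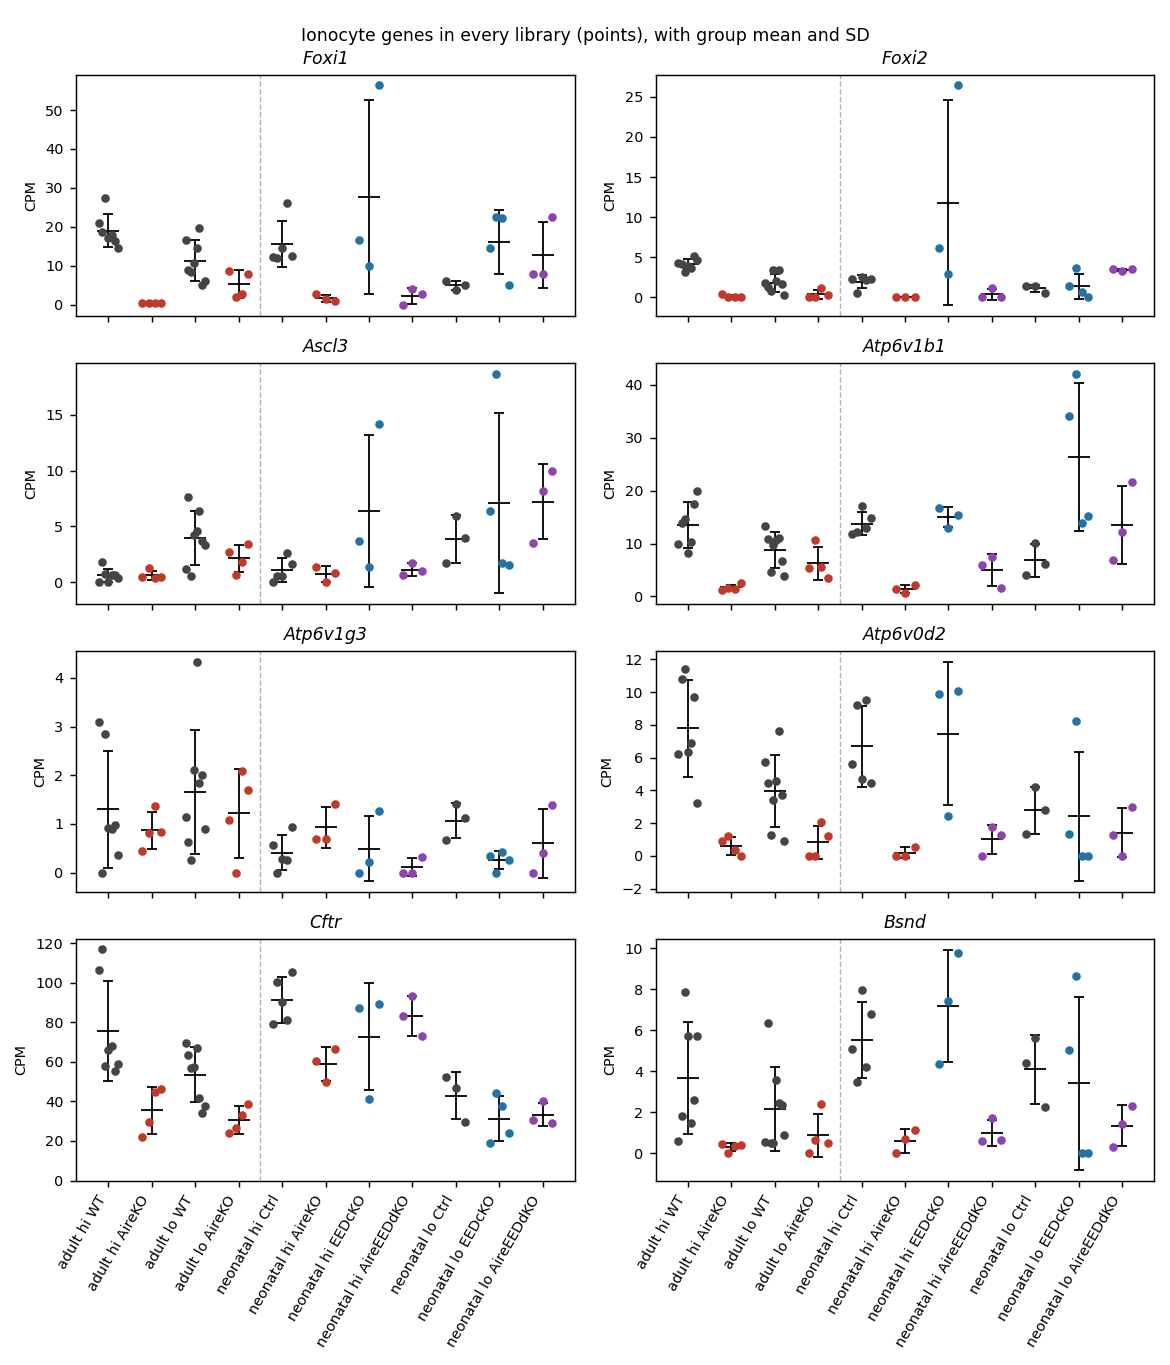
Level of each of the 8 genes in CPM (vertical axes, linear, scaled for each gene) in every library (points), grouped by fraction, genotype and age along the horizontal axes, with bars for the group mean ± SD and a dashed line between the adult and the neonatal table. Foxi1 points of adult mTEChi AireKO sit between 0.342 and 0.439 CPM, below all 7 WT points at 14.6 to 27.5 CPM.

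The first question was how far the genes depend on Aire in adult mTEChi, the fraction with most Aire. Of the 7 genes tested, 6 were called lower in AireKO than in WT, where 17.8% of all tested genes were called lower. Their median log2 fold change was -3.52, against -0.01 over all tested genes. Ascl3 was the exception.

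Foxi1 ranged from 14.6 to 27.5 CPM in the 7 WT libraries (median 18.0) and was 0.439, 0.409, 0.342 and 0.418 CPM in the 4 AireKO libraries, which is 1 count in each of them. The log2 fold change was -5.42 ± 0.56 (adjusted p = 6.65e-09). Pooled over libraries, 4 counts in AireKO stood against 351 in WT, a 47.3-fold difference with a 95% counting interval of 18.3 to 175. The related forkhead gene Foxi2 was lower throughout, at 3.21 to 5.16 CPM (median 4.20) in WT, and AireKO held 1 count in a single library and 0 in the other 3. Its log2 fold change was -4.86 ± 0.77 (adjusted p = 5.89e-06), and the ratio of 77 to 1 counts, 41.5-fold after scaling, has an interval of 7.23 to 1660. In neither gene did the AireKO libraries come near the lowest WT library.

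Ascl3, a basic helix-loop-helix factor of ionocytes, was close to the counting limit in both groups, at 0 to 1.80 CPM in WT (median 0.60) and at 0.439, 1.23, 0.342 and 0.418 CPM in AireKO. The groups overlapped, and the fitted log2 fold change was 0.14 ± 0.91 (adjusted p = 0.911). With 10 counts in WT and 6 in AireKO in all, a change of Ascl3 was not detectable at this depth.

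Among the proton pump subunits, Atp6v1b1 was 8.16 to 20.0 CPM in WT (median 13.8) and 1.32, 1.64, 1.37 and 2.51 CPM in AireKO, with a log2 fold change of -2.96 ± 0.41 (adjusted p = 8.60e-07). Atp6v0d2, which encodes a subunit of the membrane sector of the pump, was 3.21 to 11.4 CPM in WT (median 6.90) and 0.878, 1.23, 0.342 and 0 CPM in AireKO, with a log2 fold change of -3.59 ± 0.64 (adjusted p = 2.96e-05). Both genes were separated without overlap. Atp6v1g3, by contrast, overlapped between the groups, at 0 to 3.10 CPM (median 0.906) in WT and 0.439, 0.818, 1.37 and 0.835 CPM in AireKO.

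The channel genes differed from each other in size of change. Cftr was 55.5 to 117 CPM in WT (median 66.1) and 21.9, 29.5, 44.5 and 46.4 CPM in AireKO, a log2 fold change of -1.05 ± 0.24 (adjusted p = 4.39e-04), with all 4 AireKO libraries below the lowest WT library. Its change lay at the 2-fold limit and fell short of it in 4 of 11 fits that left out 1 library, with log2 fold changes from -1.20 to -0.88. Bsnd was 0.620 to 7.85 CPM in WT (median 2.58) and 0.439, 0, 0.342 and 0.418 CPM in AireKO, a log2 fold change of -3.52 ± 0.90 (adjusted p = 0.00161). Its 3 counts in AireKO against 74 in WT give a 13.3-fold ratio with an interval of 4.38 to 65.9. The WT library with the lowest Bsnd value and 3 AireKO libraries held 1 count each, so the ranges were apart by depth alone at that edge.

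Markers of other cells in these libraries were read beside the genes, because macrophages and osteoclasts also use Atp6v0d2. The list of 10 macrophage, dendritic cell and osteoclast genes summed to 403 to 494 CPM over mTEChi libraries of WT mice and reached 415 to 504 CPM in AireKO, with counts of all 10 genes in both groups. Of the 9 genes of this list that were tested, 4 were called lower and 1 higher (median log2 fold change -0.89), and their part in the fall of Atp6v0d2 was not tested. Summed thymocyte genes ranged from 83.9 to 118 CPM in WT libraries and from 45.2 to 58.1 CPM in AireKO libraries, with 5 of 6 tested called lower. Of 7 mesenchyme genes 4 were called lower and 1 higher (median -2.22), and the summed cTEC list ranged from 511 to 626 CPM in WT libraries and from 628 to 750 CPM in AireKO libraries, with 1 of 6 genes lower. The ciliated mimetic list of 6 genes summed to 392.2 to 456 CPM in WT, against 291 to 387 CPM in AireKO, and the tuft mimetic list of 8 genes to 270 to 409 and 159 to 249 CPM. The part of any of these lists in the changes of the 8 genes was not tested.

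**Figure D2:**
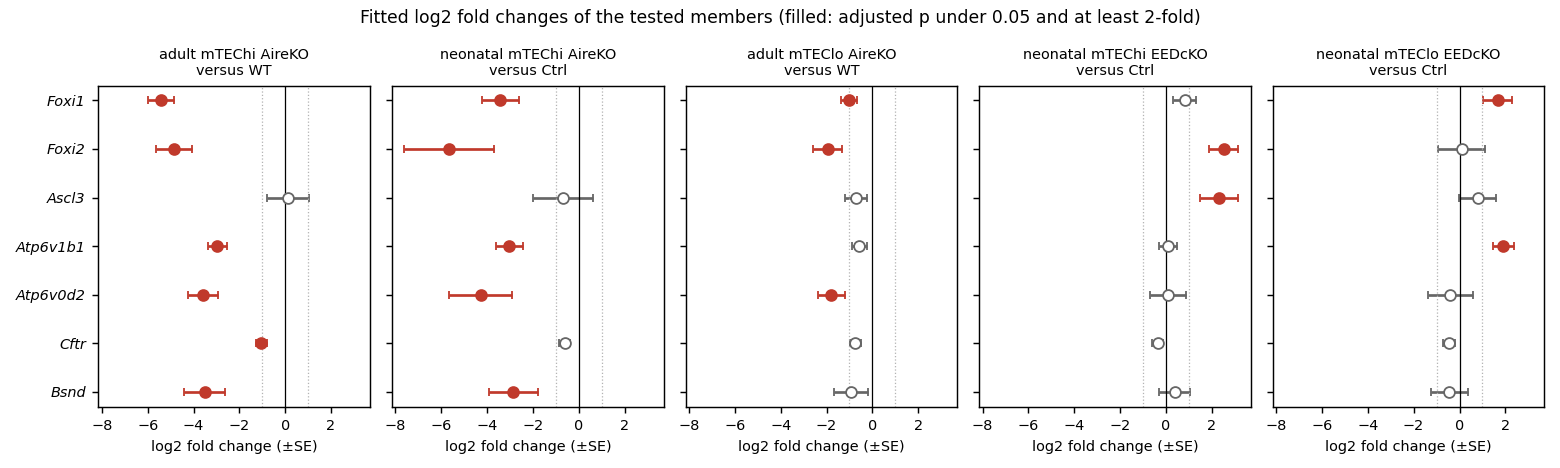
Fitted log2 fold change (horizontal axes, with bars for ± 1 SE) of the 7 tested genes in 5 comparisons of a knockout with its control, with dotted lines at 2-fold and filled points for genes called at an adjusted p under 0.05. In both AireKO mTEChi comparisons Foxi1, Foxi2, Atp6v1b1, Atp6v0d2 and Bsnd lie left of the 2-fold line, where the neonatal Foxi2 point is fitted against libraries at 0 counts and is no bound, and in EEDcKO Foxi2 and Ascl3 (mTEChi) or Foxi1 and Atp6v1b1 (mTEClo) lie right of it.

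In adult mTEClo, the fraction with little Aire, the differences between AireKO and WT were smaller. Foxi1, Foxi2 and Atp6v0d2 were called lower, 3 of 7 genes tested, where 3.88% of all tested genes were called lower. Foxi1 was 5.04 to 19.8 CPM (median 9.83) in the 8 WT libraries and 8.66, 1.88, 2.68 and 8.01 CPM in AireKO, so that AireKO replicates 1 and 4 lay within the WT range (log2 fold change -1.02 ± 0.35, adjusted p = 0.0297). Foxi2 was 0.30 to 3.41 CPM (median 1.70) in WT and 0, 0, 1.19 and 0.243 CPM in AireKO, with a log2 fold change of -1.94 ± 0.63 (adjusted p = 0.0251). Atp6v0d2 was 0.899 to 7.63 CPM (median 4.07) in WT and 0, 0, 2.08 and 1.21 CPM in AireKO, with a log2 fold change of -1.79 ± 0.59 (adjusted p = 0.0275). Every one of these groups overlapped. Cftr, at 33.9 to 69.5 CPM in WT and 23.8, 26.3, 33.4 and 38.9 CPM in AireKO, passed the p threshold with a change under 2-fold (adjusted p = 0.0195), and Atp6v1b1 did not pass it (5.41, 10.6, 5.66 and 3.40 CPM in AireKO, 3.90 to 13.2 CPM in WT, log2 fold change -0.56 ± 0.33, adjusted p = 0.218). Ascl3 (2.71, 0.626, 1.79 and 3.40 CPM in AireKO), Bsnd (0, 0.626, 2.38 and 0.486 CPM) and Atp6v1g3 (1.08, 0, 2.08 and 1.70 CPM) overlapped WT without a call. The calls depended on single libraries, since none of the 3 was left without AireKO replicate 2, and 1 was left without WT replicate 6, AireKO replicate 1 or AireKO replicate 4. Within the libraries that held mitochondrial counts, which leaves AireKO replicates 1 and 2, Foxi1 kept its log2 fold change of -1.03 with an adjusted p of 0.168. Among male libraries alone Atp6v0d2 lost its call. The macrophage, dendritic cell and osteoclast list summed to 53.8 to 83.3 CPM in mTEClo of WT mice and 115 to 167 CPM in AireKO, and of its 9 tested genes 3 were called higher and 1 lower.

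The loss in AireKO was larger in mTEChi than in mTEClo for Foxi1 and Atp6v1b1 by the test of the difference itself. The log2 fold changes differed by -4.40 ± 0.75 for Foxi1 (adjusted p = 7.38e-05) and by -2.39 ± 0.55 for Atp6v1b1 (adjusted p = 0.00185), and 13.7% of all tested genes were called in either direction. The other 5 genes were not called, Foxi2 among them (adjusted p = 0.102). Both calls remained in the 7 alternative fits and in the 23 fits that left out 1 library. Of the 7, the fit with only the compared groups repeats the main fit, because all adult groups are compared. No subset by mitochondrial counts could be fitted, since all mTEChi AireKO libraries and no WT library lack them.

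Between the fractions of WT mice, Foxi2 (1.13 ± 0.34, adjusted p = 0.00407) and Atp6v0d2 (1.01 ± 0.35, adjusted p = 0.0109) were called higher in mTEChi, where 23.7% of all tested genes were called higher. The macrophage, dendritic cell and osteoclast list rose in the same comparison, from 53.8 to 83.3 CPM in mTEClo to 403 to 494 CPM in mTEChi with 9 of 9 tested genes called higher (median 2.50), and its part in the rise of Atp6v0d2 was not tested. Ascl3 was called lower, where 12.4% of all tested genes were. The Ascl3 libraries of mTEClo ran from 0.510 to 7.63 CPM (median 3.94) against 0 to 1.80 CPM in mTEChi, with a log2 fold change of -2.73 ± 0.53 (adjusted p = 4.20e-05), and Ascl3 alone of the 3 kept its call in all 15 fits that left out 1 library. Foxi2 lost it without mTEClo WT replicate 3 or 8, and Atp6v0d2 in 6 of the 15. Both also lost it among male libraries alone. Foxi1 (19.1 ± 4.21 CPM in mTEChi and 11.3 ± 5.26 in mTEClo, adjusted p = 0.00657), Atp6v1b1 (13.4 ± 4.31 and 8.83 ± 3.35 CPM, adjusted p = 0.0175) and Cftr (75.7 ± 25.2 and 53.5 ± 13.9 CPM, adjusted p = 0.0192) passed the p threshold with changes under 2-fold. Bsnd (3.69 ± 2.73 and 2.15 ± 2.04 CPM, adjusted p = 0.0667) did not pass it, and Atp6v1g3 overlapped at 0 to 3.10 CPM in mTEChi and 0.255 to 4.33 CPM in mTEClo. In AireKO mice the order of the fractions for Foxi1 was turned, with every mTEChi library below every mTEClo library (-3.64 ± 0.72, adjusted p = 8.37e-05). Atp6v1b1 was likewise lower in mTEChi without overlap (-1.74 ± 0.50, adjusted p = 0.00377), and Ascl3 was lower (-1.88 ± 0.78, adjusted p = 0.0403), which makes 3 genes lower where 16.7% of all tested genes were. Among the 6 AireKO libraries without mitochondrial counts the same 3 genes were called, with Foxi1 at -3.67 (adjusted p = 2.83e-04). Ascl3, with 6 counts in all of mTEChi AireKO, lost its call in 5 of 8 fits that left out 1 library, where Foxi1 and Atp6v1b1 kept theirs.

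Whether the dependence on Aire is present soon after birth was asked in neonatal mTEChi, where all libraries held mitochondrial counts. Here 5 of 7 genes were called lower in AireKO than in Ctrl, where 12.8% of all tested genes were called lower, and the median log2 fold change of the 7 was -3.04 against 0.03 over all tested genes, or -2.85 with Foxi2 set at its bound. Foxi1 was 12.4, 12.1, 14.6, 26.1 and 12.6 CPM in Ctrl and 2.74, 1.38 and 0.848 CPM in AireKO, with a log2 fold change of -3.42 ± 0.81 (adjusted p = 0.00337). Foxi2 was 2.25, 0.578, 2.48, 2.11 and 2.34 CPM in Ctrl and had 0 counts in all 3 AireKO libraries (adjusted p = 0.0349), which against a floor of 3 counts over the group makes it at least 4.53-fold lower. The ranges of both factors were apart, for Foxi2 by a single count in Ctrl replicate 2. Ascl3 was low and overlapping, at 0, 0.578, 0.550, 2.64 and 1.64 CPM in Ctrl and 1.37, 0 and 0.848 CPM in AireKO (log2 fold change -0.68 ± 1.30, adjusted p = 0.735).

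The subunits and channels were separated in the same direction. Atp6v1b1 was 11.8, 12.1, 17.1, 12.9 and 14.8 CPM in Ctrl and 1.37, 0.689 and 2.26 CPM in AireKO, with a log2 fold change of -3.04 ± 0.59 (adjusted p = 6.65e-04). Atp6v0d2 was 5.63, 9.24, 4.68, 9.50 and 4.45 CPM in Ctrl and 0, 0 and 0.565 CPM in AireKO (log2 fold change -4.28 ± 1.39, adjusted p = 0.0237), that is 98 counts against 2, a 20.8-fold ratio with an interval of 5.60 to 174. In none of these libraries did the genotypes overlap. Bsnd was 5.06, 3.47, 7.98, 4.22 and 6.79 CPM in Ctrl and 0, 0.689 and 1.13 CPM in AireKO, with a log2 fold change of -2.85 ± 1.05 (adjusted p = 0.0446). Cftr was 79.3 to 106 CPM in Ctrl and 60.3, 49.6 and 66.7 CPM in AireKO, again without overlap, but its log2 fold change of -0.62 ± 0.25 was under 2-fold (adjusted p = 0.0630). Atp6v1g3 overlapped, at 0 to 0.937 CPM in Ctrl and 0.685, 0.689 and 1.41 CPM in AireKO. The AireKO pups were 4 to 6 days old and the Ctrl pups 1 to 6 days, and with the age class as a term in the model only Foxi1 and Atp6v1b1 stayed called. The same number, 2, was left when any AireKO library was taken out, and 3 were left without Ctrl replicate 3, 4 or 5. Bsnd was the least stable, losing its call in 7 of 8 such fits, and Foxi2 lost its call in 6 of 8. The macrophage, dendritic cell and osteoclast list summed to 385 to 479 CPM in Ctrl and 408 to 528 CPM in AireKO, and 4 of its 10 genes were called lower and none higher. The tuft mimetic list summed to 176 to 240 CPM in Ctrl and 84.2 to 114 CPM in AireKO (4 of 7 tested genes lower), the ciliated mimetic list to 276 to 349 and 152 to 232 CPM (4 of 6 lower), and of 7 mesenchyme genes 4 were lower and 2 higher. The part of these lists in the changes of the 8 genes was not tested.

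Loss of EED in neonatal mTEChi was followed by a call for 2 factors and for none of the proton pump and channel genes. Foxi2 was 6.19, 2.84 and 26.4 CPM in EEDcKO, above all 5 Ctrl libraries at 0.578 to 2.48 CPM (log2 fold change 2.52 ± 0.65, adjusted p = 0.00539). Ascl3 was 3.72, 1.31 and 14.2 CPM, against 0 to 2.64 CPM in Ctrl, with an overlap at EEDcKO replicate 2 (2.31 ± 0.83, adjusted p = 0.0369). Over all tested genes 8.48% were called higher. Foxi1 was 16.7, 10.1 and 56.3 CPM in EEDcKO and was not called (0.81 ± 0.50, adjusted p = 0.218). EEDcKO replicate 3, a pool of 1-day-old pups, held the highest value of all 3 factors. Without it neither Foxi2 nor Ascl3 was called, the log2 fold changes were 1.00 for Foxi2 and 0.73 for Ascl3, and that of Foxi1 turned to -0.30. Ascl3 also lost its call without Ctrl replicate 1, 2 or 3. Among pups of up to 3 days only Foxi2 was called. Atp6v1b1 (16.7, 12.9 and 15.4 CPM against 11.8 to 17.1), Atp6v0d2 (9.91, 2.41 and 10.1 CPM against 4.45 to 9.50) and Bsnd (4.34, 7.44 and 9.75 CPM against 3.47 to 7.98) overlapped Ctrl and were not called. Cftr was 87.3, 41.3 and 89.0 CPM, within or below the Ctrl range. The mesenchyme list of 7 genes summed to 497 to 781 CPM in EEDcKO and 249 to 333 CPM in Ctrl, and its part in the higher factor levels was not tested.

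The next comparison asked what loss of EED adds in mTEChi without Aire. No gene of the 7 was called between AireEEDdKO and AireKO by edgeR, none had an unadjusted p under 0.05, and DESeq2 called none with 1 at an unadjusted p under 0.05, where 9.47% of all tested genes were called in either direction. Foxi1 was 0, 4.04 and 2.89 CPM in AireEEDdKO and Foxi2 0, 1.16 and 0 CPM, both overlapping AireKO. Atp6v1b1 was 5.89, 7.51 and 1.60 CPM, of which replicates 1 and 2 lay above the highest AireKO library at 2.26 CPM. Cftr at 83.0, 93.0 and 72.8 CPM lay above all 3 AireKO libraries, without a call. Against EEDcKO, 4 genes were called lower in AireEEDdKO, where 8.36% of all tested genes were. Foxi1 fell by 3.51 ± 0.74 on the log2 scale (adjusted p = 0.00184), Foxi2 by 5.08 ± 1.10 (adjusted p = 0.00257, 2 counts against 107, a 37.4-fold ratio with an interval of 10.1 to 313), Atp6v1b1 by 1.69 ± 0.53 (adjusted p = 0.0242) and Bsnd by 2.94 ± 1.04 (adjusted p = 0.0450). The 4 genes did not overlap between these genotypes. Atp6v0d2 did not overlap either, at 0 to 1.73 CPM against 2.41 to 10.1 CPM, and was not called (edgeR adjusted p = 0.0953). With age class as a term 1 of the 4 calls, Foxi1, was left, and 2 were left without EEDcKO replicate 3 or AireEEDdKO replicate 3. The interaction of the 2 deletions was called for no gene, where 1.25% of all tested genes were called. Cftr alone had an unadjusted p under 0.05 there (edgeR adjusted p = 0.256), and DESeq2 called none and had 1 gene at an unadjusted p under 0.05.

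In neonatal mTEClo, Atp6v1b1 and Foxi1 were called higher in EEDcKO than in Ctrl, where 9.51% of all tested genes were called higher. Atp6v1b1 was 34.0, 42.0, 13.9 and 15.1 CPM in EEDcKO and 4.05, 10.2 and 6.19 CPM in Ctrl, with no overlap (log2 fold change 1.91 ± 0.45, adjusted p = 0.00246), and this call was kept without any single library. Foxi1 was 14.5, 22.6, 22.2 and 5.05 CPM in EEDcKO and 6.08, 3.86 and 5.06 CPM in Ctrl, where EEDcKO replicate 4 lay in the Ctrl range (1.67 ± 0.63, adjusted p = 0.0473). The Foxi1 call was lost in 6 of 7 fits that left out 1 library and when only pups of up to 3 days were kept. Ascl3 varied widely, at 6.40, 18.7, 1.71 and 1.51 CPM in EEDcKO and 1.69, 5.96 and 3.94 CPM in Ctrl (0.80 ± 0.81, adjusted p = 0.486). Atp6v0d2 was 1.35, 8.26, 0 and 0 CPM against 1.35, 4.21 and 2.81 CPM, and Bsnd was 5.05, 8.62, 0 and 0 CPM against 4.39, 5.61 and 2.25 CPM. In both genes the EEDcKO libraries of pups of 1 to 3 days, replicates 1 and 2, held counts and those of 6 and 4 days, replicates 3 and 4, held none, which no mTEClo Ctrl library of that age matches. Replicates 3 and 4 and all mTEClo AireEEDdKO libraries also carry later sample numbers than the other libraries. Age and that set cannot be told apart here, also for Atp6v1b1, which was lower in replicates 3 and 4 than in 1 and 2. Neither Atp6v0d2 nor Bsnd was called (Atp6v0d2 -0.39 ± 1.00, adjusted p = 0.803, and Bsnd -0.45 ± 0.80, adjusted p = 0.71). Foxi2 was 1.35, 3.59, 0.640 and 0 CPM and Cftr 19.2, 44.2, 37.7 and 24.2 CPM in EEDcKO, both overlapping Ctrl. The cTEC list of 6 genes summed to 1603 to 2520 CPM in mTEClo Ctrl and 232 to 805 CPM in EEDcKO, and the mesenchyme list to 132 to 135 and 564 to 840 CPM, and the part of either in these changes was not tested.

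In mTEClo of AireEEDdKO mice, whose libraries all belong to the set with later sample numbers, all 3 factors were read in every library. Foxi1 was 7.89, 7.80 and 22.5 CPM, Foxi2 3.47, 3.28 and 3.47 CPM and Ascl3 3.47, 8.21 and 9.95 CPM. Atp6v1b1 at 6.94, 12.1 and 21.5 CPM had the only unadjusted p under 0.05 against EEDcKO (edgeR adjusted p = 0.163), no gene was called, DESeq2 called none and had 1 at an unadjusted p under 0.05, and 5.30% of all tested genes were called in either direction. Between fractions of AireEEDdKO, compared after the values had been seen, Foxi1 (-2.39 ± 0.76, adjusted p = 0.0164), Foxi2 (adjusted p = 0.0384, 2 counts against 42, an 11.1-fold ratio with an interval of 2.89 to 94.9), Ascl3 (-2.72 ± 1.05, adjusted p = 0.0428) and Atp6v1b1 (-1.57 ± 0.52, adjusted p = 0.0197) were lower in mTEChi, where 10.6% of all tested genes were, and Cftr was higher (1.30 ± 0.28, adjusted p = 8.00e-04), where 10.4% were. Same-numbered libraries deviated together here (r = 0.291 to 0.416), although the labels state no pairs. Replicate 1 was a pool of male and female pups in mTEChi and female in mTEClo. With replicate number as a term over all neonatal libraries, Foxi1, Atp6v1b1 and Cftr remained called. Fraction and the set with later sample numbers cannot be told apart in this comparison. Without mTEClo AireEEDdKO replicate 3 the call of Cftr alone was left, and without mTEChi AireEEDdKO replicate 1 or 3 2 calls were.

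Between the fractions of neonatal Ctrl, Cftr was 79.3 to 106 CPM in mTEChi and 52.4, 46.6 and 29.8 CPM in mTEClo (1.07 ± 0.25, adjusted p = 0.00243). Foxi1 was 12.1 to 26.1 CPM in mTEChi and 3.86 to 6.08 CPM in mTEClo (1.66 ± 0.62, adjusted p = 0.0384). Neither overlapped, and 13.8% of all tested genes were called higher. Without mTEClo Ctrl replicate 3 neither gene was called. Foxi1 also lost its call without mTEClo Ctrl replicate 1 or 2 or mTEChi Ctrl replicate 4, and with a replicate block. Cftr lost its call with age class as a term, where mTEClo Ctrl pups were 1 to 3 days old and mTEChi Ctrl pups 1 to 6 days. Atp6v1b1 and Atp6v0d2 were also higher in every mTEChi than in every mTEClo library but were not called (adjusted p = 0.0726 and 0.281). The cTEC list summed to 1603 to 2520 CPM in mTEClo and 461 to 833 CPM in mTEChi (4 of 6 genes lower), and the macrophage, dendritic cell and osteoclast list to 143 to 239 and 385 to 479 CPM (5 of 10 higher), and their part in these differences was not tested. In EEDcKO the same comparison, added after the values had been seen, called Foxi2 (3.21 ± 0.73, adjusted p = 0.00163) and Cftr (1.19 ± 0.26, adjusted p = 9.09e-04) higher in mTEChi, where 14.2% of all tested genes were, although without mTEChi EEDcKO replicate 3 neither was and without mTEClo EEDcKO replicate 2 4 were. The effect of EED loss was not shown to differ between the fractions for any of the 7 genes, where 1.58% of all tested genes were called in either direction. Atp6v1b1 had the only unadjusted p under 0.05 (edgeR adjusted p = 0.129), and DESeq2 called none and had 1 at an unadjusted p under 0.05.

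Ranked by mean level over the 4 adult groups, Foxi1, Foxi2, Atp6v1b1, Atp6v0d2 and Bsnd had the same order, mTEChi WT, mTEClo WT, mTEClo AireKO and mTEChi AireKO. The ranges of neighbouring groups in that order were apart only for Foxi1 and Atp6v1b1, between mTEClo AireKO (5.31 ± 3.52 and 6.28 ± 3.08 CPM) and mTEChi AireKO (0.402 ± 0.0417 and 1.71 ± 0.551 CPM). Cftr had mTEClo AireKO last, at 30.6 ± 6.84 CPM beside 35.6 ± 11.8 CPM in mTEChi AireKO. Ascl3 had mTEClo WT first at 3.93 ± 2.40 CPM, and Atp6v1g3 was between 0.865 ± 0.383 and 1.65 ± 1.27 CPM with all neighbouring ranges overlapping. Over the 7 neonatal groups, mTEChi AireKO had the lowest mean for 6 of the 8 genes, of which Ascl3 rests on 5 counts there and overlaps its neighbours. The exceptions were Cftr, lowest in mTEClo EEDcKO at 31.3 ± 11.6 CPM, and Atp6v1g3, lowest in mTEChi AireEEDdKO at 0.107 ± 0.185 CPM from 1 count. The highest neonatal group was mTEChi EEDcKO for Foxi1 (27.7 ± 25.0 CPM), Foxi2 (11.8 ± 12.8 CPM), Atp6v0d2 (7.46 ± 4.38 CPM) and Bsnd (7.17 ± 2.72 CPM), mTEClo EEDcKO for Atp6v1b1 (26.3 ± 13.98 CPM) and mTEClo AireEEDdKO for Ascl3 (7.21 ± 3.36 CPM). Cftr was highest in mTEChi Ctrl (91.3 ± 11.6 CPM) and Atp6v1g3 in mTEClo Ctrl (1.07 ± 0.367 CPM). Neighbouring neonatal ranges were apart for Foxi1 below mTEClo AireEEDdKO, for Foxi2 below mTEClo AireEEDdKO and for Atp6v0d2 below mTEChi Ctrl, and overlapped at every other step.

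The V-ATPase of most cells contains widely expressed partner subunits in place of the 3 studied here, so each was set against its partner per kilobase. Atp6v1b1 reached a median of 8.70% of Atp6v1b2 in adult mTEChi of WT mice (5.45 to 13.95%) and 1.04% in AireKO (0.844 to 1.51%). The partner itself was 35.6 ± 2.32 CPM per kb in WT and 35.0 ± 3.07 in AireKO, within 1 SD of each other. In neonatal mTEClo EEDcKO the share was 17.9 to 55.6% (median 34.6%), above the 4.01 to 10.3% of Ctrl (median 6.40%), while the partner was 16.9 ± 0.719 CPM per kb in EEDcKO and 22.6 ± 0.494 in Ctrl. Atp6v0d2 reached a median of 6.25% of Atp6v0d1 in adult mTEChi of WT mice (2.20 to 9.96%) and 0.366% in AireKO (0 to 0.725%). Atp6v1g3 stood at medians of 4.30% and 3.36% of Atp6v1g1 in the same groups, with overlapping ranges. Foxi2 was 20.0% of Foxi1 per kilobase in adult mTEChi of WT mice by median, 10.4 to 28.1% in single libraries. The third gene of the Foxi subfamily, Foxi3, was too low to be tested. It was at 0 in every mTEChi library of AireKO and AireEEDdKO mice, where mTEChi EEDcKO held 2.52 to 4.96 CPM and neonatal mTEChi Ctrl 0.468 to 1.69 CPM. Foxi3 was also at 0 in every adult mTEClo library, WT included. Adult mTEChi of WT mice and neonatal mTEClo of AireEEDdKO mice held counts of it.

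**Figure D3:**
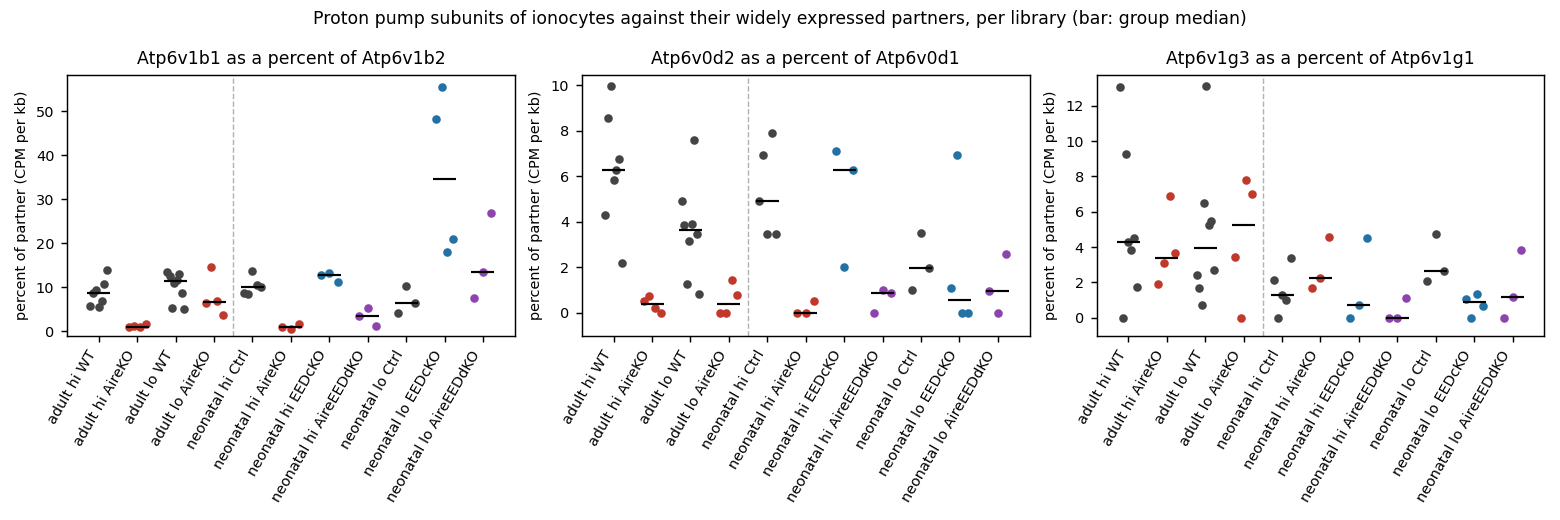
Level of each ionocyte pump subunit as a percent of its widely expressed partner, both in CPM per kilobase (vertical axes, linear), in every library (points) with the group median (bar), by group along the horizontal axes. Atp6v1b1 falls from a median of 8.70% of Atp6v1b2 in adult mTEChi WT to 1.04% in AireKO and reaches 17.9 to 55.6% in neonatal mTEClo EEDcKO.

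Other genes of the same cells were read from 3 lists of 22 further V-ATPase subunits (21 tested), 18 transport genes (all tested) and 11 factor and surface genes (10 tested). In adult mTEChi of AireKO mice 11 of 18 transport genes were called lower and none higher (median log2 fold change -1.57), where 17.8% of all tested genes were called lower. Slc4a1, the basolateral chloride and bicarbonate exchanger of acid-secreting intercalated cells, had 346 counts in WT and 0 in all AireKO libraries. Against a floor of 3 counts it was at least 62.2-fold lower if the WT counts are taken as exact. The anion exchanger Slc26a7 stood at 11.6 ± 5.45 CPM in WT and 0.276 ± 0.336 in AireKO. Of the further V-ATPase subunits 2 of 21 were called lower (median 0.14), Atp6v1c2 at -2.88 ± 0.47 and Atp6v0a4 at -1.03 ± 0.31, both themselves tissue-restricted forms. Of the factor and surface genes 3 of 10 were lower, among them Adgrf5 (-4.46 ± 0.46) and Hepacam2 (-1.75 ± 0.27).

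In adult mTEClo of AireKO mice no transport gene was called lower and 2 were higher (Scnn1g 1.36 ± 0.22), where 4.42% of all tested genes were called higher, and no further subunit or factor gene was called. Between the WT fractions 12 of 18 transport genes were higher in mTEChi and 1 lower, with Rhcg at 4.54 ± 0.36, Slc26a7 at 4.38 ± 0.41 and Slc4a1 at 4.04 ± 0.46, where 23.7% of all tested genes were called higher and 12.4% lower. Of the further V-ATPase subunits 3 were higher and 1 lower, with Atp6v0a4 at 2.35 ± 0.28, Atp6v0a1 at 1.55 ± 0.09 and Tcirg1 at -1.25 ± 0.09. Of the factor and surface genes 4 were higher and 4 lower, with Pparg at 2.15 ± 0.25, P2ry14 at 1.70 ± 0.10 and Hepacam2 at -1.73 ± 0.17.

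In neonatal mTEChi of AireKO mice 10 of 18 transport genes were lower (median -1.42), where 12.8% of all tested genes were called lower, with Slc4a1 at 17.1 ± 2.38 CPM in Ctrl and 0.228 ± 0.396 in AireKO, the ammonia transporter Rhcg at 17.6 ± 1.98 and 1.10 ± 1.45 CPM and the water channel Aqp6 at 5.76 ± 1.97 and 0.417 ± 0.366 CPM. Of the further V-ATPase subunits 1 was lower (Atp6v0e2, -1.20 ± 0.38), and of the factor and surface genes 3, Adgrf5 (-1.85 ± 0.46), Hepacam2 (-1.59 ± 0.33) and Insrr (-1.56 ± 0.53). In mTEChi of EEDcKO mice the carbonic anhydrase gene Car2 (1.74 ± 0.37) and Slc26a7 (1.15 ± 0.38) were the 2 transport genes called higher, and no further V-ATPase subunit was called. Of the factor and surface genes 2 were higher and 2 lower, with Moxd1 at 2.30 ± 0.33, Hepacam2 at -1.35 ± 0.30 and Stap1 at -1.16 ± 0.41, where 8.48% of all tested genes were called higher and 5.40% lower. In mTEClo of EEDcKO mice Moxd1 (2.56 ± 0.34) and Insrr (2.35 ± 0.47) were higher, where 9.51% of all tested genes were, and no transport or further subunit gene was called.

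Between AireEEDdKO and AireKO mTEChi, where none of the 7 genes tested was called, the sodium channel subunit gene Scnn1a was among the transport genes called higher (1.24 ± 0.37). Of the factor and surface genes Moxd1 (2.62 ± 0.50) and Pparg (1.05 ± 0.33) were higher and Stap1 lower (-1.29 ± 0.43), where 6.69% of all tested genes were called higher and 2.78% lower. Bsnd was 0.988 ± 0.646 CPM (n = 3) in AireEEDdKO, 0.606 ± 0.570 CPM (n = 3) in AireKO and 5.50 ± 1.85 CPM (n = 5) in Ctrl. Against EEDcKO, 7 of 18 transport genes were lower in mTEChi of AireEEDdKO mice, where 8.36% of all tested genes were called lower and 4.99% higher. Rhcg stood at 0.107 ± 0.185 CPM against 16.6 ± 7.66 and Slc26a7 at 1.32 ± 0.644 against 15.2 ± 2.32 CPM, and Slc4a1 was at 0 in all AireEEDdKO libraries of both fractions. The V-ATPase subunit genes Atp6v1c1 (1.25 ± 0.21) and Atp6v0e2 (-1.24 ± 0.39) moved in opposite directions, and Adgrf5 (-1.51 ± 0.46) and Insrr (-1.42 ± 0.47) were lower. In mTEClo of AireEEDdKO mice 3 transport genes were lower than in EEDcKO, Slc26a7 at -2.17 ± 0.50, and Kit was higher (1.19 ± 0.18), where 5.30% of all tested genes were called in either direction.

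**Figure D4:**
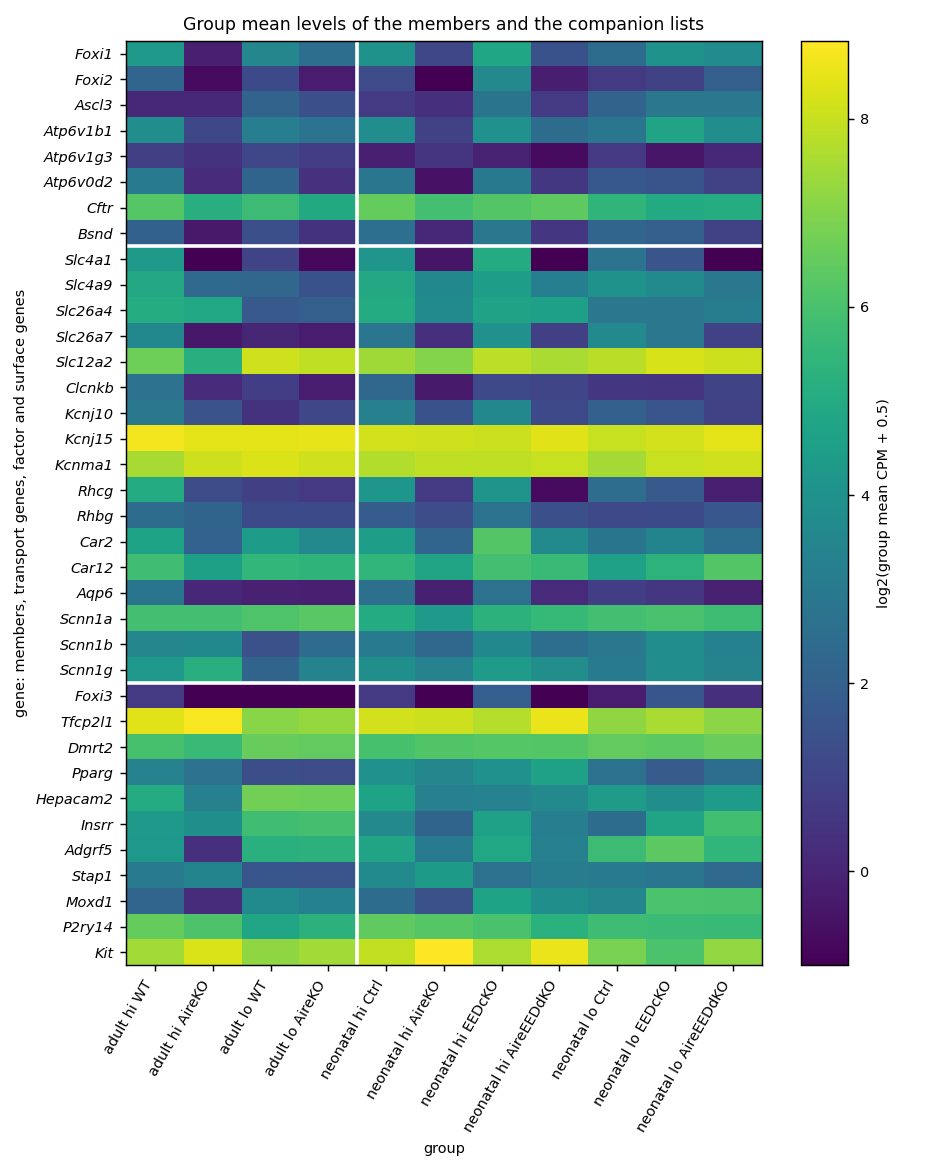
Group mean level as log2 of CPM plus 0.5 (colour scale, dark for low and yellow for high) of the 8 genes, 17 transport genes and the 11 factor and surface genes (rows), in the 4 adult and 7 neonatal groups (columns), with white lines between the lists and between the tables. Foxi1, Foxi2, Slc4a1, Rhcg and Aqp6 are darker in the mTEChi columns of AireKO and AireEEDdKO than in those of WT, Ctrl and EEDcKO.

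The protein-coding genes whose log2 CPM followed each gene most closely were listed over the 23 adult and over the 24 neonatal libraries. These libraries share genotypes and fractions, so that the values describe the groups as much as the genes. Foxi1 was followed by Anks1b (Pearson r = 0.945), Kcnk16 (0.943) and Smyd1 (0.939) in the adult table and by Lmo2 (0.868), Arhgef37 (0.867) and Bgn (0.860) in the neonatal table. Foxi2 was followed by Eml1 (0.898) in the adult and by Lmo2 (0.892) in the neonatal table, and Eml1 also led for adult Atp6v0d2 (0.894). Cftr was followed by Slc10a5 (0.919) in the adult and Mal2 (0.947) in the neonatal table, and neonatal Atp6v1b1 by Muc20 (0.906). By Spearman rho the genes named for Foxi1 ranked 5, 141 and 10 in the adult and 40, 33 and 8 in the neonatal table. The genes named for Foxi2, Atp6v0d2, Cftr and Atp6v1b1 ranked 1 to 3. Among the 8 genes, the closest pair in the adult table was Foxi2 with Atp6v0d2 (r = 0.914 over 23 libraries), which was 0.673 after removal of the group means.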

How the data were processed

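RNA from sorted mTEChi and mTEClo was sequenced in 23 adult and 24 neonatal libraries. Per the labels and the study's methods, the authors trimmed reads with fastp 0.20.0, aligned them to mm10 with STAR 2.7.3a, removed duplicates and poorly mapped reads with Picard 2.21.1 and SAMtools 1.9, and counted reads per gene without regard to strand with HTSeq 0.11.2. The deposited values used here are these raw counts per Ensembl gene. The authors' normalized tables were not used. The annotation release behind the counts is not given in the sources used here, and Ensembl identifiers were paired with GRCm38 symbols.

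Counts were tested with edgeR 4.0.16 (R 4.3.3) by the quasi-likelihood F-test after filtering of low genes (19310 adult and 20196 neonatal genes kept) and TMM scaling, with all groups of a table sharing the spread and Benjamini-Hochberg adjustment over all kept genes. In all 16 comparisons were made, 2 of them added after the values had been seen. Standard errors are the log2 fold change divided by the square root of F and are approximate. CPM are per TMM-scaled library, and pooled count ratios have exact 95% intervals. On simulated counts of the adult mTEChi AireKO comparison 93 of 100 genes with a log2 change of 2 and 99 of 100 with a log2 change of 3 were recovered among 19310 genes, with 10 false calls. In the neonatal mTEChi AireKO comparison these were 81 and 100 of 100 among 20196 genes, with 8 false calls. The changed genes averaged at least 5 CPM over the libraries of a table, and all genes were given a single fixed spread. These rates therefore do not cover sparser genes such as Foxi2, Ascl3 and Bsnd. Alternatives were DESeq2 1.42.0, other size factors, no filter, age, sex and mitochondrial-count subsets, replicate blocks and leaving out each library. Same-numbered libraries deviated together in adult AireKO fractions (r = 0.139 to 0.222), in neonatal mTEChi AireEEDdKO and AireKO (0.108 to 0.213) and in AireEEDdKO fractions (0.291 to 0.416). The labels state no pairs. The replicate block was a term for replicate number over all libraries of a table, not over these libraries alone. The 8 genes and the gene lists were chosen with earlier results of these data known. Of the 8 genes, those a comparison does not mention were not called in it. Up to 3 called genes per list and comparison are named, those of largest change whose higher group averages 5 CPM or more, save in comparisons between fractions outside WT, where they were left out for length. Slc4a1 in AireEEDdKO and Foxi3 were singled out after their values were seen. The values of 1 transport gene are not reported here.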

Additional observations from a re-analysis of the deposited data

Results flagged for a closer look

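Single libraries stood apart from the rest of their group for 5 of the 8 genes. These were 7 of 48 sets examined, each of 1 gene in 1 group of 4 to 8 libraries. For continuous values chance flags about 1 in 20. That rate does not cover sets of few counts, such as those of Foxi2 and Ascl3 here, so 7 of 48 cannot be read as an excess. Foxi1 was highest in neonatal mTEChi Ctrl replicate 4 at 26.1 CPM, with the next library at 14.6. Foxi2 was 0.439 CPM, a single count, in adult mTEChi AireKO replicate 1 with the other libraries at 0, and was lowest in neonatal mTEChi Ctrl replicate 2 at 0.578 CPM, with the next at 2.11. Ascl3 was 1.80 CPM in adult mTEChi WT replicate 2 (next 0.714) and 1.23 CPM in AireKO replicate 2 (next 0.439), at most 3 counts in each. Atp6v1g3 was 4.33 CPM in adult mTEClo WT replicate 5, with the next library at 2.10. Atp6v0d2 was 8.26 CPM in neonatal mTEClo EEDcKO replicate 2, with the next at 1.35.

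The effect of Aire loss differed between adult mTEChi and mTEClo by the edgeR test of the difference of log2 fold changes for Foxi1 (-4.40, adjusted p = 7.38e-05) and Atp6v1b1 (-2.39, adjusted p = 0.00185). Among the further genes of the lists it differed for Adgrf5 (-4.56, adjusted p = 3.16e-07), Slc26a7 (-4.91, adjusted p = 0.00950), Rhcg (-3.33, adjusted p = 0.0437) and Kcnj10 (-2.60, adjusted p = 0.00607). The same held for Atp6v1c2 (-2.32, adjusted p = 0.00319), Moxd1 (-2.26, adjusted p = 0.00902) and Hepacam2 (-1.71, adjusted p = 2.28e-04). All 4 adult mTEChi AireKO libraries lack mitochondrial counts and 2 of the 4 mTEClo AireKO libraries do, and the part of that difference in these values cannot be told apart from genotype.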

How the results depend on the processing

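The number of the 8 genes called in a comparison was set against that of the main fit under each alternative. It was equal or close in 233 cases, smaller in 43 and larger in 5. Close counts were taken as the same, also where 1 gene lost its call or where both counts were 0. With only the compared groups in the fit, 1 gene was called in adult mTEClo AireKO in place of 3, and 5 in place of 2 between neonatal Ctrl fractions. With a replicate block the number called was 1 between adult WT fractions, 0 in mTEChi EEDcKO, 1 in mTEClo EEDcKO, 1 between Ctrl fractions and 3 between AireEEDdKO fractions. The labels state no pairs, and only in the last did same-numbered libraries deviate together. In the other comparisons where they did, the block changed no number. With age class as a term it was 2 in neonatal mTEChi AireKO and 1 in AireEEDdKO against EEDcKO. Among pups of up to 3 days it was 1 in mTEChi EEDcKO, 1 in mTEClo EEDcKO and 1 for the difference in EED effect, which was also 1 without a filter. With RLE size factors it was 1 in mTEClo EEDcKO. The cause of these changes was not tested.

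Leaving out 1 library gave 5 to 6 called genes in adult mTEChi AireKO, 0 to 3 in adult mTEClo AireKO, 1 to 4 between adult WT fractions and 2 to 3 between adult AireKO fractions. In neonates it gave 2 to 5 in mTEChi AireKO, 0 to 2 in mTEChi EEDcKO, 2 to 4 in AireEEDdKO against EEDcKO, 1 to 2 in mTEClo EEDcKO, 0 to 1 in mTEClo AireEEDdKO against EEDcKO, 0 to 2 between Ctrl fractions, 0 to 4 between EEDcKO fractions and 1 to 4 between AireEEDdKO fractions.

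The sign turned only for uncalled changes. Ascl3 in adult mTEChi AireKO was -0.015 by library size alone, -0.16 in male libraries and -0.41 to 0.50 without single libraries, and in neonatal mTEChi AireKO it was 1.17 with age class as a term. Foxi1 in mTEChi EEDcKO was -0.30 to 1.25 without single libraries. In mTEClo EEDcKO, leaving out single libraries gave -0.34 to 1.34 for Ascl3, -2.82 to 0.11 for Atp6v0d2 and -1.54 to 0.032 for Bsnd, while pups of up to 3 days gave 0.71 for Atp6v0d2 and 0.61 for Bsnd, and age class as a term 0.011 for Bsnd. Scaling by library size alone brought the all-gene median of log2 fold changes to -0.18 in both mTEChi AireKO comparisons, from -0.01 in adults and 0.03 in neonates. In mTEChi, Atp6v1g3 in any group and Ascl3 outside EEDcKO had at most 10 counts in a library, so that the order of their means among those groups is not resolved at this depth.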
